A study of Mus musculus with 24 samples.

Results

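The genes of the N-methyl-D-aspartate (NMDA) receptor are described here in neuronal and non-neuronal nuclei of the hippocampus of mice that lack DNA glycosylases. The members are the 7 genes that encode its subunits, Grin1, Grin2a, Grin2b, Grin2c, Grin2d, Grin3a and Grin3b, found by symbol among 55254 genes, and all 7 passed the filter on low counts in every fit. Nuclear RNA came from male C57BL/6N mice aged 6 months. Nuclei were stained for NeuN, the protein encoded by Rbfox3, and sorted into NeuN+ nuclei of neurons and NeuN- nuclei, which are mostly glial. Each fraction was measured in wild type (WT) mice, in Mutyh-/- mice, in Ogg1-/- mice and in the double knockout (DKO) bred from both lines, with 3 replicates per group and 24 libraries in all. The methods speak of biological replicates for the study in general and of nuclei pooled over animals of a genotype for the RNA. Whether each library is a separate pool is unclear, so the tests measure the spread between these libraries, which may be technical.

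Ogg1 and Mutyh act together in base excision repair. Ogg1 removes oxidised guanine from DNA, and Mutyh removes the adenine that is paired with it by mistake. The NMDA receptor is a cation channel of excitatory synapses that opens when glutamate is bound while the membrane is depolarised. It is a tetramer of obligatory GluN1 subunits, encoded by Grin1, which bind glycine or D-serine, and of further subunits of the GluN2 group, which bind glutamate, or of the GluN3 group, which bind glycine. The GluN2 subunits set how long the channel stays open. In the forebrain Grin2b dominates early in life and Grin2a is added as synapses mature, Grin2c is best known from cerebellar granule cells and astrocytes, and Grin2d from interneurons and the young brain.

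Total counts per library ranged from 56563586 to 96192142 (median 70434612), which gave between 1.40 and 4111 counts per 1000000 counts of a library (CPM) for a subunit. At least 68.9% of genes differed in count between any replicates of 1 group, so no library was a copy of another. Per the labels, each fraction had sequencing lanes of its own, and an effect of the lane cannot be told apart from that of the cell type. The gene count of Ogg1 was no lower in Ogg1-/- than in WT libraries (3.21 to 3.66 CPM against 2.77 to 3.77 CPM in NeuN+), and that of Mutyh was higher in the libraries labelled Mutyh-/- (9.88 to 11.5 CPM) than in WT (1.15 to 1.28 CPM) of NeuN+. Mutyh was also high in DKO of NeuN+ (8.47 to 12.2 CPM) but not in Ogg1-/- (1.15 to 1.41 CPM). In NeuN- it had 9.28 to 9.71 CPM in Mutyh-/- and 6.65 to 9.22 CPM in DKO. There it had 2.39 to 2.82 CPM in WT and 2.92 to 3.29 CPM in Ogg1-/-. Counts per gene do not show which exons were read, so the count of neither gene tests the deletion, and the genotypes below are those of the labels.

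On the reference genome GRCm38 the subunit genes lie on 7 different chromosomes. Grin1 spans chromosome 2 from 25291181 to 25319187 on the minus strand. The antisense transcript Grin1os runs the other way within it, from 25291220 to 25298925, and covers 13.5% of the exonic bases of Grin1. Grin2a lies on chromosome 16 (9567898 to 9995560), Grin2b on chromosome 6 (135713233 to 136173511), Grin2c on chromosome 11 (115249169 to 115267243), Grin2d on chromosome 7 (45831883 to 45878378), Grin3a on chromosome 4 (49661611 to 49845744) and Grin3b on chromosome 10 (79970715 to 79977190). Grin2b is 22.38 Mb from Ogg1 on its chromosome and Grin3a is 66.96 Mb from Mutyh. Of the exonic bases of Grin3b, 32.1% overlap Tmem259 on the opposite strand, and 9.66% of those of Grin2d overlap the antisense gene Gm45441. How strand was handled in counting is not given in the sources used here, so reads of these genes and of their partners on the other strand cannot be told apart.

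The promoters of Grin1 and Grin2c are shown because Grin1 encodes the obligatory subunit and Grin2c was the subunit called in the opposite direction between the cell types. Each runs from 250 bases before to 50 bases after the RefSeq start on GRCm38.p6, which held a promoter for 4 of the 7 subunits. Both lie on the minus strand, that of Grin1 at chr2:25319138-25319437 and that of Grin2c at chr11:115267194-115267493. Capitals mark GGGCGG, the GC box, searched on both strands.
Grin1 promoter: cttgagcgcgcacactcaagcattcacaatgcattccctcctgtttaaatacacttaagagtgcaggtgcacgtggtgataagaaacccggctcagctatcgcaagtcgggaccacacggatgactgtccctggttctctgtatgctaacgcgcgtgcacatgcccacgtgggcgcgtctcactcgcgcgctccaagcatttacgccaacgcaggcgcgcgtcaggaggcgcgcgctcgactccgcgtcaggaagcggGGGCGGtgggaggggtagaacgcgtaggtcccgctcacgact
Grin2c promoter: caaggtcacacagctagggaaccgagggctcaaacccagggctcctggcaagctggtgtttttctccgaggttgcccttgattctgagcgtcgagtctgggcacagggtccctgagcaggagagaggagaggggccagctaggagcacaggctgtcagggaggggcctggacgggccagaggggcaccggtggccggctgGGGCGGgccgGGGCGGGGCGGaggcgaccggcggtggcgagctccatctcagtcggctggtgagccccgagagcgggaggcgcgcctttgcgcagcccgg
The Grin1 window held 33 CpG dinucleotides, more than 91.4% of all 32851 promoter windows, and 1 GC box, 8 bases after the start. The Grin2c window held 22 CpG, more than 76.9% of windows, and 3 GC boxes at -50, -40 and -35, the last of which overlap by a base. A GC box was present in 35.7% of all windows. The Grin2d window held 12 CpG and that of Grin3b 3, neither with a GC box, against a median of 7 over all windows.

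In NeuN+ nuclei of WT the subunit genes differed widely in level. Levels were compared between genes as CPM per kilobase of exon (RPKM). Grin2a was the most abundant at 192 ± 13.4 RPKM (SD, n = 3), followed by Grin2b at 98.4 ± 5.44 RPKM and by Grin1, the subunit in every receptor, at 36.6 ± 0.943 RPKM. The other subunits were far lower. Grin3a stood at 4.76 ± 0.235 RPKM, Grin2d at 3.17 ± 0.0396 RPKM, Grin3b at 0.873 ± 0.0875 RPKM and Grin2c at 0.422 ± 0.0622 RPKM. No neighbours in this order overlapped over the 3 WT libraries. The order of the means held with the length of the longest transcript in place of all exons. Grin1 then stood at 82.97 RPKM, much closer to Grin2b at 101.62 RPKM, and Grin2a at 235.32 RPKM. How far Grin1 lies below Grin2b thus depends on the length used. Shares of the summed RPKM were computed with all exons only. Of the RPKM summed over the 7 genes, Grin2a made up 57.1% ± 1.12, Grin2b 29.3% ± 0.347 and Grin1 10.9% ± 0.83 (SD, n = 3). These are levels of nuclear RNA, which holds unspliced transcripts, and not of protein.

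NeuN- nuclei had another order. Grin2c, the lowest subunit in NeuN+, was the highest in NeuN- of WT at 21.2 ± 2.50 RPKM (SD, n = 3) and made up 40.5% ± 1.79 of the summed RPKM. Grin2a (7.97 to 10.5 RPKM over the 3 libraries), Grin2b (6.93 to 8.46 RPKM) and Grin3a (6.53 to 7.28 RPKM) came next and overlapped. Grin1 followed at 3.29 ± 0.214 RPKM, Grin2d at 2.00 ± 0.0669 RPKM and Grin3b at 1.32 ± 0.0811 RPKM, with no overlap among these. With the length of the longest transcript in place of all exons, Grin3a came before Grin2b in this order and the other places held. Grin1 then stood at 7.47 RPKM and Grin2b at 8.16 RPKM.

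**Figure D1:**
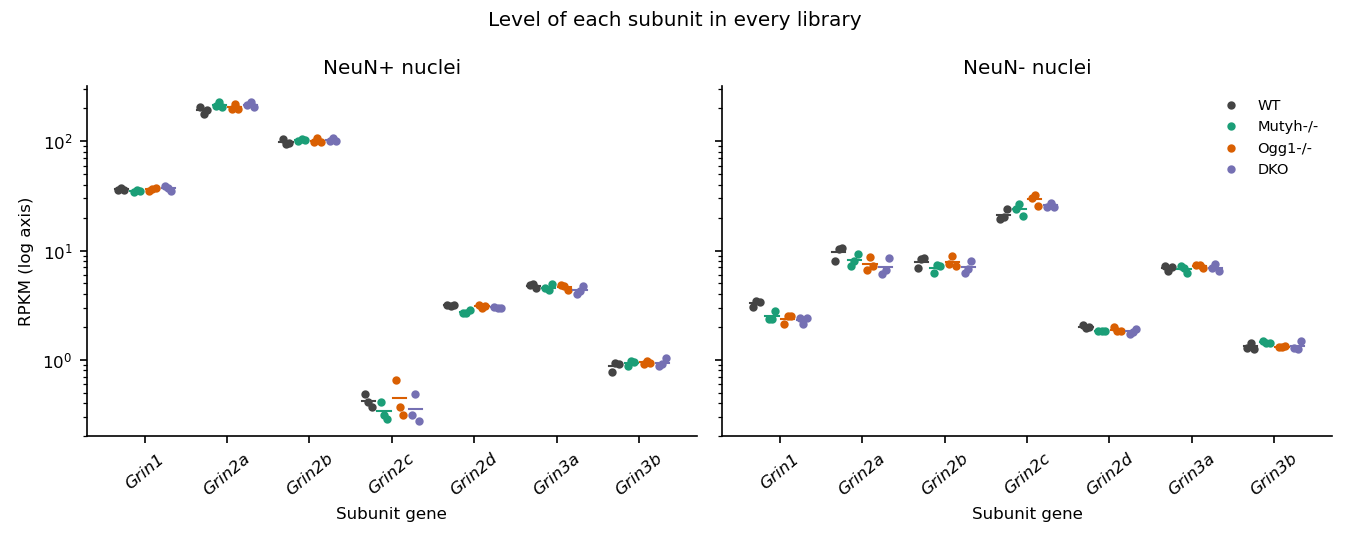
Level of each subunit gene in RPKM on a log axis in the 24 libraries, with NeuN+ nuclei left and NeuN- nuclei right. Points are libraries, colours are genotypes and short lines are means of 3. In WT, Grin2a leads in NeuN+ (192 RPKM) and Grin2c in NeuN- (21.2 RPKM), where it is lowest in NeuN+ (0.422 RPKM).

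**Figure D2:**
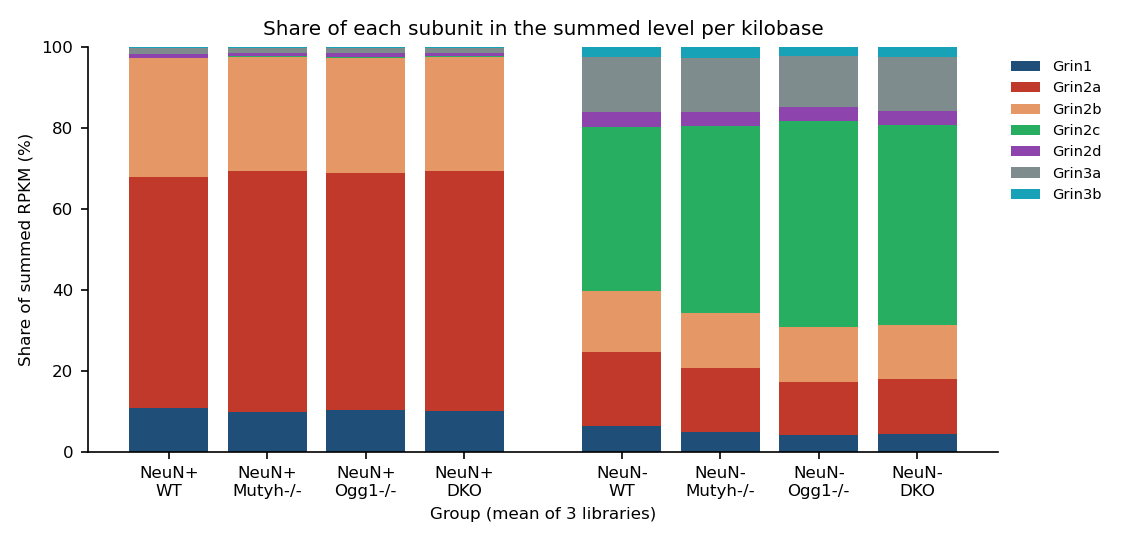
Mean share (%) of each subunit gene in the RPKM summed over all 7 genes, for the 8 groups of 3 libraries. In WT, Grin2a and Grin2b hold 57.1% and 29.3% in NeuN+, while Grin2c holds 40.5% in NeuN- and 0.125% in NeuN+.

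The first comparison asked how the fractions of WT differ. Between NeuN+ and NeuN- of WT, 4 of the 7 subunits were called, with a log2 fold change beyond 1 in size at an adjusted p under 0.05. The test was the quasi-likelihood test of edgeR, fitted to 24 libraries with Benjamini-Hochberg adjustment. Of all 33523 genes tested, 42.9% were called (21.3% higher and 21.6% lower in NeuN+), so such a call is common. Grin1, Grin2a and Grin2b were higher in NeuN+. Grin2a had 3184, 3489 and 3658 CPM in NeuN+ and 143, 185 and 189 CPM in NeuN-, a log2 fold change of 4.32 (SE 0.14, adjusted p = 8.19e-18). For Grin2b the log2 fold change was 3.64 (SE 0.10, adjusted p = 5.39e-19) and for Grin1 it was 3.47 (SE 0.08, adjusted p = 3.58e-20). Grin2c was higher in NeuN-. Its level was 1.85, 2.06 and 2.47 CPM in NeuN+ and 97.3, 102.015 and 121 CPM in NeuN-, a log2 fold change of -5.65 (SE 0.21, adjusted p = 9.66e-17).

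The remaining subunits differed less between the fractions. Grin2d was higher in NeuN+ by 0.66 on the log2 scale (SE 0.05, adjusted p = 6.34e-11). Grin3a and Grin3b, the glycine-binding GluN3 subunits, were higher in NeuN- with log2 fold changes of -0.55 (SE 0.07, adjusted p = 6.28e-07) and -0.60 (SE 0.09, adjusted p = 3.7e-06). These 3 passed the adjusted p, as 72.4% of all genes did, but not the fold limit, and their libraries did not overlap between the fractions, which held for 76.1% of all genes tested. The 4 called subunits were also called, in the same direction, within Mutyh-/- (43.9% of all genes called), Ogg1-/- (43.9%) and DKO (44.4%). The log2 fold change of Grin1 was 3.81 in Mutyh-/-, 3.93 in Ogg1-/- and 4.01 in DKO. For Grin2c it was -6.15, -6.08 and -6.17.

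Grin1, Grin2a and Grin2b were low in NeuN-, as were some neuron markers. In WT, the NeuN- level was 8.998% of the NeuN+ level for Grin1, 5.01% for Grin2a and 8.03% for Grin2b. For Rbfox3, which encodes NeuN itself, it was 6.17%, for the synaptic vesicle gene Syt1 6.67% and for Snap25 11.8%. The other neuron markers were higher, with 16.0% for Stmn2, 16.2% for Nrgn, 23.2% for Nefl, 52.2% for Map2 and 53.9% for Tubb3, so that Grin2a lay below all 8. Summed over the 8 neuron markers, the level in WT was 5040 to 5404 CPM in NeuN+ and 630 to 702 CPM in NeuN-, and none of the 8 was at 0. For Grin2d, Grin3a and Grin3b the NeuN- level was 63.2%, 147% and 152% of that in NeuN+, above every neuron marker on the list. Of the astrocyte markers, the sum in WT was 2789 to 3314 CPM in NeuN- and 294 to 358 CPM in NeuN+, again with none at 0. The part of neuronal RNA in the NeuN- levels, and of astrocyte RNA in the Grin2c level of NeuN+, was not tested. In bulk samples, fewer cells of a type and less RNA per cell cannot be told apart.

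**Figure D3:**
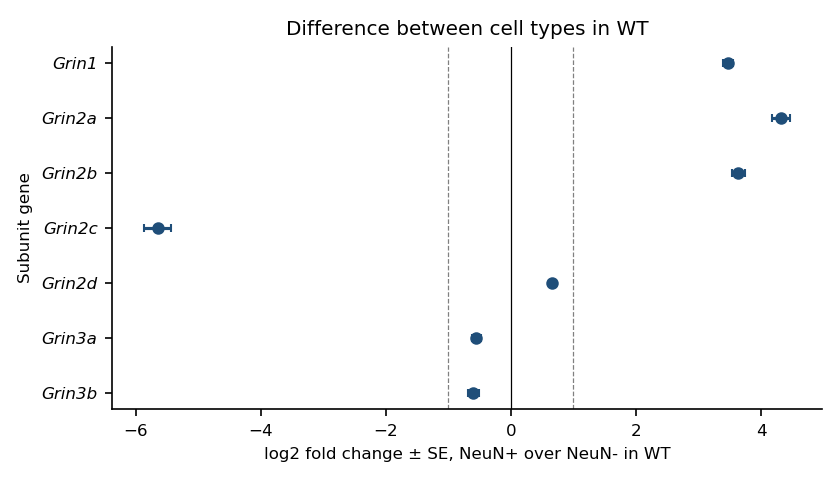
Log2 fold change of each subunit between NeuN+ and NeuN- of WT (points) with its SE (bars) from the fit of 24 libraries. Dashed lines mark the fold limit of 1. Grin1, Grin2a and Grin2b lie between 3.47 and 4.32, Grin2c at -5.65 and the others within the limit.

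The next question was whether the knockouts altered the subunits. In NeuN+ nuclei, 0 of the 7 subunits were differentially expressed genes (DEGs), defined by a log2 fold change beyond 0.5 in size with an adjusted p under 0.05, in any knockout against WT in the edgeR quasi-likelihood test. DESeq2 likewise called 0. Of the 30132 genes tested, 0.428% were DEGs in Mutyh-/-, 0.574% in Ogg1-/- and 0.302% in DKO. At an unadjusted p under 0.05 there were 2 subunits in Mutyh-/- (all genes: 18.7%), 0 in Ogg1-/- (12.3%) and 2 in DKO (13.5%). The subunit in every receptor, Grin1, was close to WT. Its level was 348, 351 and 365 CPM in WT, 335, 342 and 345 CPM in Mutyh-/-, 343, 352 and 362 CPM in Ogg1-/- and 338, 365 and 381 CPM in DKO. The log2 fold changes were -0.06 (SE 0.05), -0.03 (SE 0.05) and 0.01 (SE 0.05), with adjusted p from 0.58 to 0.953. The libraries of Mutyh-/- lay just below those of WT, as for 10.8% of all genes, and the others overlapped with WT.

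Grin2a, the subunit with the most RNA, had a higher mean level in each knockout of NeuN+ than in WT, by less than the tests could call. Its level was 3184, 3489 and 3658 CPM in WT, 3660, 3780 and 4090 CPM in Mutyh-/-, 3546, 3578 and 3950 CPM in Ogg1-/- and 3673, 3869 and 4111 CPM in DKO. All libraries of Mutyh-/- and DKO were above those of WT, as were those of 10.3% and 7.33% of all genes, and those of Ogg1-/- overlapped. None of the log2 fold changes passed, with 0.16 in Mutyh-/- (SE 0.06, adjusted p = 0.178), 0.08 in Ogg1-/- (SE 0.06, adjusted p = 0.65) and 0.16 in DKO (SE 0.06, adjusted p = 0.278). Grin2b moved less, with log2 fold changes of 0.06, 0.02 and 0.06 (SE 0.05 each, adjusted p from 0.542 to 0.927) and overlapping libraries.

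For Grin2d the difference was in Mutyh-/- of NeuN+. Its level was 20.8, 21.3 and 21.3 CPM in WT and 17.7, 18.0 and 18.9 CPM in Mutyh-/-, without overlap, as for 10.8% of all genes in that direction. The log2 fold change of -0.21 (SE 0.05) had an adjusted p of 0.0751 and a size under the fold limit. In Ogg1-/- it was -0.06 (SE 0.05) and in DKO -0.09 (SE 0.05), where the libraries lay just below those of WT (9.49% of all genes). Markers of interneurons, a cell type known for Grin2d, were lower in the same libraries: all 8 had log2 fold changes below 0 in Mutyh-/- of NeuN+ (median -0.37, against -0.01 over all genes), 7 of them at an unadjusted p under 0.05, and their summed level was 181 to 222 CPM against 242 to 261 CPM in WT. In Ogg1-/- the sum was 221 to 245 CPM and in DKO 213 to 225 CPM. The part of these cells in the level of Grin2d was not tested.

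The scarce subunits of NeuN+ showed no difference that passed. Grin3a had a log2 fold change of -0.16 in DKO (SE 0.07, adjusted p = 0.316) with overlapping libraries, and -0.05 in each single knockout (SE 0.07). Grin3b lay at 0.11, 0.10 and 0.09 (SE 0.11 each). Grin2c, at 1.40 to 3.296 CPM in NeuN+, had the widest errors, with log2 fold changes of -0.32 (SE 0.27), 0.04 (SE 0.26) and -0.25 (SE 0.26). Differences of that size were not detectable for it. The 6 astrocyte markers had log2 fold changes below 0 in all knockouts of NeuN+ (6 of 6 in each, with 1, 0 and 1 at an unadjusted p under 0.05), and their part in the level of Grin2c was not tested.

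In NeuN- nuclei, again 0 of the 7 subunits were DEGs in any knockout in the edgeR quasi-likelihood test, where 0.273% of the 31863 genes tested were DEGs in Mutyh-/-, 0.229% in Ogg1-/- and 0.116% in DKO. DESeq2 called 1 in DKO, Grin1, and 0 in the others, and its share over all genes was not computed. At an unadjusted p under 0.05 there were 2 subunits in Mutyh-/- (all genes: 13.7%), 3 in Ogg1-/- (11.8%) and 4 in DKO (12.4%). Grin1 was the subunit nearest to the limits. Its level was 29.6, 32.5 and 33.6 CPM in WT, 22.8, 22.9 and 27.3 CPM in Mutyh-/-, 20.7, 24.3 and 24.3 CPM in Ogg1-/- and 20.6, 23.2 and 23.5 CPM in DKO. All 9 knockout libraries were below all 3 WT libraries, and the knockouts overlapped among themselves. Against WT, no overlap in that direction was seen for 10.2%, 10.7% and 9.15% of all genes. The log2 fold change was -0.40 in Mutyh-/- (SE 0.09, adjusted p = 0.117), -0.47 in Ogg1-/- (SE 0.09, adjusted p = 0.0548) and -0.51 in DKO (SE 0.09, adjusted p = 0.053).

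The test for any difference among the 4 genotypes called Grin1 in NeuN- (edgeR quasi-likelihood test, adjusted p = 0.0425), as it did 0.760% of all genes, and none of the other 6 subunits. At an unadjusted p under 0.05 there were 2, with Grin2c (13.5% of all genes). This call was near the limit and did not hold in most fits without 1 library. The adjusted p was between 0.0164 and 0.198 when 1 of the 12 libraries was left out and over 0.05 for 10 of the 12. The unadjusted p was at most 0.0025 over the 19 alternatives run. In NeuN+ the same test called 0 subunits, with 1 of 7 (Grin2d) at an unadjusted p under 0.05 (15.4% of all genes) and 1.06% of all genes called. Grin1os, the antisense transcript that shares exonic bases with Grin1, differed in the same way in NeuN-, with log2 fold changes of -0.33 (SE 0.08, adjusted p = 0.153), -0.40 (SE 0.08, adjusted p = 0.0743) and -0.48 (SE 0.08, adjusted p = 0.0461).

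Neuron markers were lower in the same NeuN- libraries. Of the 8, the log2 fold change was below 0 for 8 in Mutyh-/- (0 at an unadjusted p under 0.05), 7 in Ogg1-/- (6) and 8 in DKO (7), with medians of -0.11, -0.27 and -0.29. Rbfox3 itself had log2 fold changes of -0.17 (SE 0.14), -0.31 (SE 0.14) and -0.43 (SE 0.14), and Tubb3 of -0.11 (SE 0.15), -0.52 (SE 0.16) and -0.58 (SE 0.16). The summed level was 630 to 702 CPM in WT, 636 to 652 CPM in Mutyh-/-, 592 to 654 CPM in Ogg1-/- and 568 to 632 CPM in DKO. Set against this sum, Grin1 had 47.4 ± 1.34 CPM per 1000 CPM of neuron markers in WT, 37.9 ± 3.46 in Mutyh-/-, 37.7 ± 3.04 in Ogg1-/- and 37.9 ± 2.66 in DKO (SD, n = 3). The lowest WT library, at 46.4, was above the highest knockout library, at 41.8. The share of all genes with such a gap in this ratio was not computed. This sum, chosen after seeing the data, includes Map2 and Tubb3. In WT their NeuN- level was 52.2% and 53.9% of that in NeuN+, against 8.998% for Grin1. The ratio therefore cannot set apart the part of neurons in the level of Grin1, which was not tested. Across the 4 genotypes this ratio had p = 0.024 and the CPM of Grin1 itself p = 0.0103, in an exact permutation test over all 369600 ways to form the groups. All 7 subunits were tested in this way and the values are not adjusted. The ratio of Grin2c to the markers had a smaller p in this permutation test (0.00662, against 0.0317 for its CPM) than that of Grin1. For Grin3b the p was 0.0384 (0.166 for its CPM), and for the remaining subunits it was over 0.05. In WT the NeuN- level of Grin2c and Grin3b was 5027% and 152% of that in NeuN+. For such genes a lower sum of neuron markers raises the ratio by itself, so no conclusion about them is drawn from it.

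**Figure D4:**
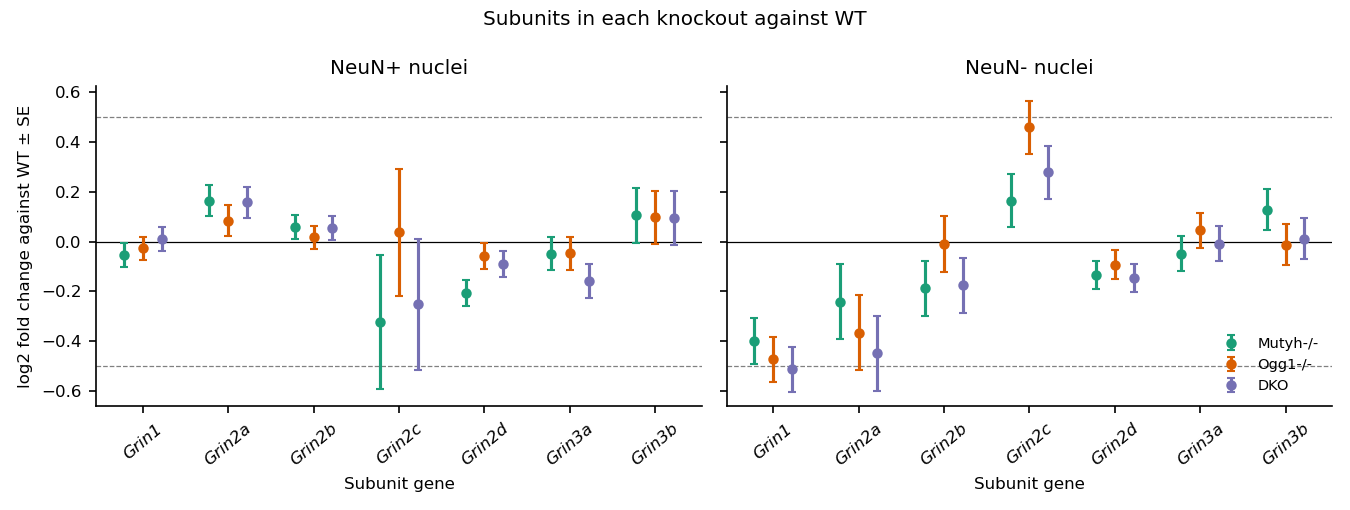
Log2 fold change of each subunit against WT (points) with its SE (bars), in NeuN+ left and NeuN- right, with colours for the knockouts and dashed lines at the fold limit of 0.5. Grin1 of NeuN- lies at -0.40, -0.47 and -0.51, and no subunit was a DEG.

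**Figure D5:**
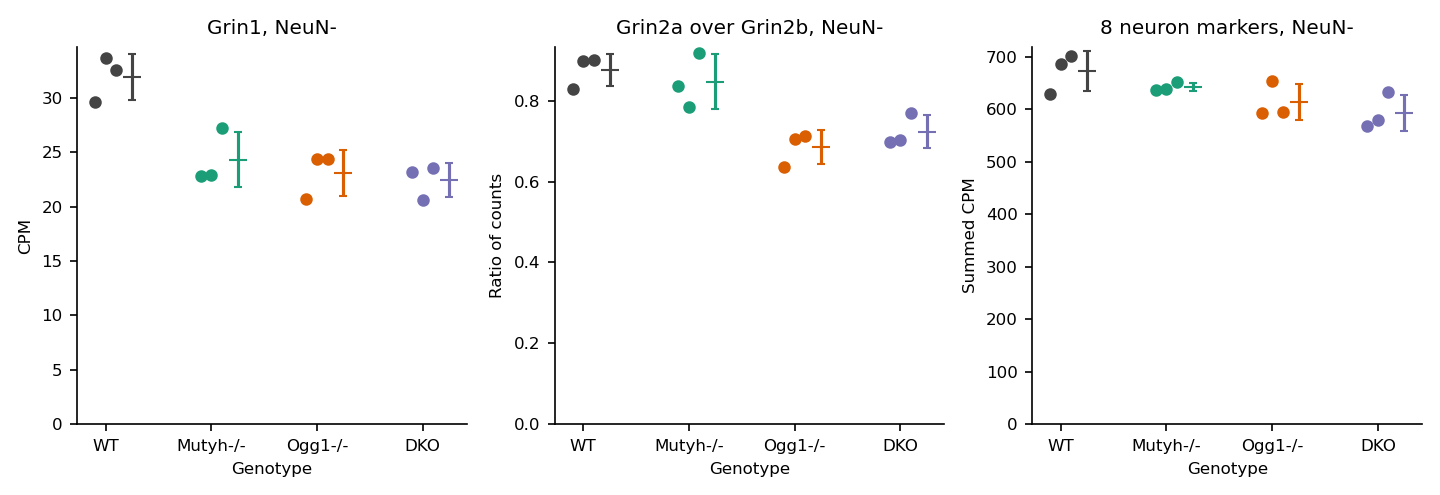
NeuN- libraries by genotype, with the CPM of Grin1 left, the ratio of Grin2a to Grin2b counts in the middle and the summed CPM of 8 neuron markers right. Points are libraries, and bars are the mean ± SD of 3. All 9 knockout libraries lie below WT for Grin1 (20.6 to 27.3 CPM against 29.6 to 33.6 CPM).

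Grin2a and Grin2b, the GluN2 subunits of most hippocampal synapses, had unequal fold changes in NeuN-. Grin2a had 143, 185 and 189 CPM in WT, 130, 143 and 166 CPM in Mutyh-/-, 118, 129 and 156 CPM in Ogg1-/- and 108, 119 and 153 CPM in DKO. Its libraries overlapped with WT in each knockout. The log2 fold changes were -0.24 (SE 0.15, adjusted p = 0.51), -0.37 (SE 0.15, adjusted p = 0.364) and -0.45 (SE 0.15, adjusted p = 0.287). Grin2b stood at -0.19 (SE 0.11), -0.01 (SE 0.11) and -0.18 (SE 0.11). The ratio of Grin2a to Grin2b counts, which removes differences in depth, was 0.876 ± 0.0402 in WT, 0.847 ± 0.0679 in Mutyh-/-, 0.685 ± 0.0426 in Ogg1-/- and 0.724 ± 0.0399 in DKO (SD, n = 3). The Ogg1-/- and DKO libraries were all below those of WT and of Mutyh-/-. Across genotypes the ratio differed (exact permutation test, p = 0.00532, adjusted over both cell types 0.0106).

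In NeuN+ the same ratio was 1.41 ± 0.0388 in WT, 1.51 ± 0.0625 in Mutyh-/-, 1.47 ± 0.0241 in Ogg1-/- and 1.51 ± 0.0506 in DKO (SD, n = 3), and the exact permutation test gave p = 0.0714. All knockout libraries were above those of WT, by a margin of less than the SD. Markers of oligodendrocyte precursors, glial cells that also carry NMDA receptors, had log2 fold changes below 0 in all knockouts of NeuN- (3 of 3 in each, 0 at an unadjusted p under 0.05), with a sum of 479 to 539 CPM in WT, 433 to 498 CPM in Ogg1-/- and 445 to 465 CPM in DKO. The 5 oligodendrocyte markers were also below 0 in Ogg1-/- and DKO of NeuN- (5 of 5 in each, 2 at an unadjusted p under 0.05), with a sum of 5911 to 6645 CPM in WT, 5045 to 5667 CPM in Ogg1-/- and 4501 to 5578 CPM in DKO. The interneuron markers were below 0 there for 8 of 8, with 3 in Ogg1-/- and 2 in DKO at an unadjusted p under 0.05. The choroid plexus markers summed to 34.2 to 61.7 CPM in WT, 9.52 to 98.6 CPM in Ogg1-/- and 7.20 to 220.4 CPM in DKO. The part of these cells, and of the neurons described above, in the ratio was not tested.

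Grin2c, the subunit with the highest level in NeuN-, differed most in Ogg1-/-. Its level was 97.3, 102.015 and 121 CPM in WT, 104, 122 and 135 CPM in Mutyh-/-, 129, 152 and 162 CPM in Ogg1-/- and 126, 127 and 137 CPM in DKO. The libraries of Ogg1-/- and DKO were all above those of WT, as for 9.12% and 7.80% of all genes, and those of Mutyh-/- overlapped. The log2 fold changes were 0.16 (SE 0.11, adjusted p = 0.528), 0.46 (SE 0.11, adjusted p = 0.114) and 0.28 (SE 0.11, adjusted p = 0.328). Astrocyte markers were higher in the same libraries. All 6 had log2 fold changes above 0 in Ogg1-/- (median 0.25) and in DKO (median 0.25), 4 of them at an unadjusted p under 0.05 in each. Among them, Aldh1l1 was a DEG in Ogg1-/- (0.52, SE 0.10, adjusted p = 0.0483) and Gfap lay at 0.52 in Ogg1-/- (SE 0.10, adjusted p = 0.0507) and 0.51 in DKO (SE 0.10, adjusted p = 0.0725). The summed astrocyte markers were 2789 to 3314 CPM in WT, 3247 to 4112 CPM in Ogg1-/- and 3468 to 3628 CPM in DKO, and the part of these cells in the level of Grin2c was not tested. As a share of the summed RPKM of the subunits, Grin2c was 40.5% ± 1.79 in WT, 46.2% ± 3.83 in Mutyh-/-, 50.9% ± 2.17 in Ogg1-/- and 49.4% ± 2.31 in DKO (SD, n = 3).

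The remaining subunits of NeuN- had small fold changes that did not pass. Grin2d had log2 fold changes of -0.13 (SE 0.06, adjusted p = 0.325), -0.09 (SE 0.06, adjusted p = 0.577) and -0.15 (SE 0.06, adjusted p = 0.337). Its libraries of Mutyh-/- and DKO were all below those of WT (10.2% and 9.15% of all genes), with unadjusted p of 0.0352 and 0.0248 in the edgeR test. Grin3a had -0.05, 0.05 and -0.01 (SE 0.07 each). Its level of 76.2 to 93.1 CPM over the 12 NeuN- libraries was above the 49.0 to 60.6 CPM of the 12 NeuN+ libraries. Grin3b had 0.13, -0.01 and 0.01 (SE 0.08 each).

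Whether a knockout acted differently on the fractions was tested as an interaction in the fit of 24 libraries. No subunit was called in Mutyh-/-, Ogg1-/- or DKO with a log2 difference beyond 0.5 in size at an adjusted p under 0.05 in the edgeR quasi-likelihood test, as were 0.0209%, 0.0507% and 0.0567% of all genes. At an unadjusted p under 0.05 there were 2 subunits in each, Grin1 and Grin2a (all genes: 8.58%, 7.09% and 9.40%). DESeq2 called 0, 0 and 2, and its share over all genes was not computed. For Grin1 the effect in NeuN+ minus that in NeuN- was 0.33 in Mutyh-/- (SE 0.10, adjusted p = 0.338), 0.46 in Ogg1-/- (SE 0.10, adjusted p = 0.178) and 0.53 in DKO (SE 0.10, adjusted p = 0.0662). For Grin2a it was 0.39 (SE 0.17, adjusted p = 0.527), 0.46 (SE 0.17, adjusted p = 0.589) and 0.62 (SE 0.17, adjusted p = 0.242). Grin1os was called in DKO at 0.53 (SE 0.10, adjusted p = 0.0373). When libraries of equal genotype and replicate number were blocked as pairs, the edgeR test also called Grin1 in DKO, at 0.53 (adjusted p = 0.0405).

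The knockouts were also compared with each other. In NeuN+, 0 subunits were called by the edgeR quasi-likelihood test and by DESeq2 in DKO against Ogg1-/- (0.216% of genes called), in DKO against Mutyh-/- (0.139%) or in Ogg1-/- against Mutyh-/- (0.485%). Grin2d had an unadjusted p under 0.05 in the comparisons with Mutyh-/-, with log2 fold changes of 0.12 in DKO (SE 0.05, adjusted p = 0.71) and 0.15 in Ogg1-/- (SE 0.05, adjusted p = 0.242). Such a p was found for 4.26%, 6.86% and 12.7% of all genes. In NeuN-, where 0.132%, 0.122% and 0.521% of genes were called, 0 subunits were called by either tool, and Grin2c had an unadjusted p under 0.05 in Ogg1-/- against Mutyh-/- (0.30, SE 0.11, adjusted p = 0.292), where the shares of all genes were 4.34%, 11.0% and 11.5%. The effect of DKO minus those of both single knockouts was called for 0 subunits in NeuN+ (0.159% of genes) and NeuN- (0.119%) by both tools. At an unadjusted p under 0.05 (7.95% of all genes in NeuN+, and 3.74% higher and 4.26% lower in NeuN-) it was 0.18 for Grin2d in NeuN+ (SE 0.07, adjusted p = 0.609), and 0.36 for Grin1 (SE 0.13, adjusted p = 0.562) and -0.35 for Grin2c (SE 0.15, adjusted p = 0.615) in NeuN-. For Grin1 of NeuN- the single knockouts thus stood nearly as far from WT as DKO did, and the test of that departure from a sum did not pass.

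The genes around the receptor were taken from 4 lists with 67 members, all of which were tested in each fit. Scaffold proteins of the postsynaptic density anchor the receptor, signalling proteins are its kinases, phosphatases and calcium sensors, trafficking proteins carry it to the membrane, and a further list holds the genes for supply and removal of glutamate, glycine and D-serine. Between NeuN+ and NeuN- of WT, 47 of the 67 were called, 37 higher in NeuN+ and 10 lower, where 42.9% of all genes were called (21.3% higher and 21.6% lower). The median log2 fold change was 1.34, against -0.01 over all genes. Of the 19 scaffold genes 16 were higher in NeuN+ and 0 lower, with Dlgap2 at 4.16. Of the 21 signalling genes 13 were higher and 0 lower, with Camk2a, the calcium-dependent kinase that binds the receptor, at 3.12. Of the 10 trafficking genes 4 were higher, among them Kif17, the motor protein that carries GluN2B, at 2.94. Of the 17 ligand genes 4 were higher, among them the vesicular glutamate transporter Slc17a7 at 3.19, and 10 were lower. The serine transporter Slc7a10 at -4.96, the serine synthesis enzyme Phgdh at -4.81 and the astrocyte glutamate transporter Slc1a3 at -4.43 had the most negative values.

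Over the comparisons of each knockout with WT, the only DEG among the 67 was Slc7a10 in Ogg1-/- of NeuN-, with a log2 fold change of 0.55 (SE 0.07, edgeR quasi-likelihood adjusted p = 0.00294). Slc7a10 encodes a carrier of glycine and D-serine, the co-agonists of GluN1. Its log2 fold change in DKO of NeuN- was 0.29 (SE 0.07, adjusted p = 0.158). In NeuN+ 0 of the 67 were DEGs, while 19, 11 and 13 had an unadjusted p under 0.05 (Mutyh-/-, Ogg1-/-, DKO) and DESeq2 called 1, 0 and 0. Over all genes, 0.428%, 0.574% and 0.302% were DEGs and 18.7%, 12.3% and 13.5% had such a p. In NeuN- there were 0, 1 and 0 DEGs, with 13, 24 and 23 at an unadjusted p under 0.05, and DESeq2 called 0, 1 and 0. Over all genes, 0.273%, 0.229% and 0.116% were DEGs and 13.7%, 11.8% and 12.4% had such a p.

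Some partner genes passed the adjusted p but not the fold limit. The adjusted p alone was passed by 0.641% of all genes in Mutyh-/- and 1.10% in Ogg1-/- of NeuN+, and by 0.342% in Ogg1-/- and 0.179% in DKO of NeuN-. Of the 67 partner genes, 1 passed it in Mutyh-/- and 2 in Ogg1-/- of NeuN+, and 2 in Ogg1-/- and 1 in DKO of NeuN-. In Ogg1-/- of NeuN+ these included Calm2 (-0.47, SE 0.09, adjusted p = 0.0234), whose protein, calmodulin, binds GluN1 and closes the channel when calcium is high. In DKO of NeuN+, Calm3 (-0.46, SE 0.11, adjusted p = 0.0879) had the smallest p among the signalling genes and did not pass. In Mutyh-/- of NeuN+ the neutral amino acid transporter Slc1a4 stood at 0.37 (SE 0.08, adjusted p = 0.0423).

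The other partner genes with the smallest p of their list did not pass. In NeuN+ these were the scaffold genes Actn2 (-0.19) and Dlgap3 (0.19) in Mutyh-/- and Akap5 and Shank2 in Ogg1-/- (-0.27 and 0.14) and in DKO (-0.23 and 0.14). The signalling genes Camk2g (-0.31) and Ppp1ca (-0.33) and the trafficking genes Lin7b (-0.31) and Exoc4 (0.10) led in Mutyh-/-. Lin7c stood at -0.29 in both Ogg1-/- and DKO, with Lin7b at -0.15 in Ogg1-/- and Kif17 at 0.11 in DKO. Of the ligand genes, Psph was at 0.51 in Mutyh-/- (SE 0.15, adjusted p = 0.11), Slc1a4 at 0.15 in Ogg1-/- and 0.32 in DKO, and the glutamine synthetase gene Glul at -0.24 and -0.35.

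In NeuN- they were Homer2 (-0.19) and Shank3 (-0.18) in Mutyh-/-, Shank1 (-0.19) and Dlgap2 (-0.37) in Ogg1-/-, and Dlgap3 (-0.24) and Dlgap2 (-0.46) in DKO among the scaffold genes. Among the signalling genes they included Prkaca (-0.16) in Mutyh-/-, Ppp1ca (-0.25) in Ogg1-/- and Camk2b (-0.37) in DKO. Among the trafficking genes these were Exoc4 (0.20) and Gipc1 (0.15), then Lin7b (-0.38) and Kif17 (-0.23), then Kif17 (-0.26) and Neto1 (-0.18). The vesicular transporter Slc17a7 stood at -0.32 in Mutyh-/- and -0.48 in DKO (SE 0.10, adjusted p = 0.0851), and Slc1a4 at 0.15 in Mutyh-/-.

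Over the 12 NeuN+ libraries, the genes most like each subunit were those with the highest Pearson r of log2 CPM. They were sought among the 20014 genes with a mean of at least 1 CPM. The highest of so many values over 12 libraries can be high without a link between the genes. These values are a description, since the libraries also share genotype and depth. The likeness was closest for Grin2a with Gria1, an AMPA-type glutamate receptor subunit (r = 0.981), followed by 2900092N22Rik (0.979) and Slc24a2 (0.977). For Grin2c the closest included Gja1 (0.912) and Kcnj10 (0.906), of which Gja1 is on the list of astrocyte markers. Grin1 was most like Ptprcap (0.93), Rpusd1 (0.926) and Colgalt1 (0.921), and Grin2b like Klhdc10 (0.929), Ggct (0.918) and Eml5 (0.918). Grin2d was most like Dnmt3b (0.917), Crtap (0.912) and Tspan2os (0.912), Grin3a like Pcdh7 (0.882), Gm45470 (0.86) and Amotl1 (0.857), and Grin3b like Fastk (0.956), BC030343 (0.941) and Pole2 (0.922). Among the subunits themselves, Grin2a and Grin2b had r = 0.904 in NeuN+ and 0.755 in NeuN-. Grin1 had r = -0.07 with Grin2a in NeuN+ and 0.82 in NeuN-. With Grin1os it had r = 0.545 in NeuN+ and 0.984 in NeuN-.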

How the data were processed

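Nuclear RNA-seq counts of 24 hippocampal libraries were analysed. The authors aligned read pairs to GRCm38 (mm10) with HISAT2 2.1.0, and the values they deposited are raw counts per gene from featureCounts for Ensembl 102, without normalization. Per the submitters' processing notes FastQC 0.11.9, SAMtools 1.10, R 4.3.2 and edgeR 3.42.4 were also used. Handling of strand and of overlapping genes is not given in the sources used here.

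Counts were analysed with R 4.3.3 and edgeR 4.0.16. Genes were filtered with filterByExpr, scaled by TMM and tested with the quasi-likelihood test and Benjamini-Hochberg adjustment over all genes. The 4 genotypes were fitted together within NeuN+ (30132 genes) and NeuN- (31863 genes), and both cell types in a fit of 24 libraries (33523 genes). The SE is the absolute log2 fold change divided by the root of F. Printed levels use TMM factors of the 24 libraries, and the fold changes fitted within a cell type differed from these levels by at most 0.0393 on the log2 scale. RPKM uses the union of exons in GENCODE vM21. The ratio of Grin2a to Grin2b was tested by exact permutation of libraries over genotypes.

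All 7 subunits were described, along with genes overlapping them. In each partner list and comparison with WT, the DEGs were named (at most 4 by adjusted p), or, where there were none, the 2 genes with the smallest p. The 3 genes most like each subunit were also named. Some genes that this rule selects are not reported here. Members, lists and tests were chosen with earlier results of these data known. The tests were tried on simulated counts. Alternatives were other size factors, filters and tests (DESeq2 1.42.0, likelihood ratio), the adjusted p alone, 2-genotype fits, the replicate block and fits without 1 library. Shares over all genes were computed for the main edgeR fits only. The level per neuron marker was added after seeing the data.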

Additional observations from a re-analysis of the deposited data

How the results depend on the processing

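The subunits had 0 calls against WT in each knockout of NeuN+, and in Mutyh-/- and Ogg1-/- of NeuN-, under all alternatives run. For Grin1 of NeuN- the adjusted p over the 14 alternative fits ran from 0.000426 to 0.24 in Ogg1-/- and from 0.0067 to 0.503 in Mutyh-/-. It thus passed in some of them, but never together with the fold limit. In DKO of NeuN- the count became 1, Grin1, with median-of-ratios size factors (adjusted p = 0.0492), with no filter on low counts (0.0168), in DESeq2 (0.000111), in the likelihood ratio test of edgeR (0.000395) and with the replicate block (0.0341). The test across genotypes of NeuN- called 1 subunit, 0 with upper quartile normalization (Grin1, adjusted p = 0.0513) and 2, Grin1 and Grin2c, in both DESeq2 and the likelihood ratio test. Leaving out 1 library gave 0 to 1, with an adjusted p of Grin1 from 0.0164 to 0.198. The interaction of DKO with cell type called 0 subunits, 1 (Grin1) with median-of-ratios size factors (adjusted p = 0.04), no filter (0.0185), the likelihood ratio test (0.00268) and the replicate block (0.0405), and 2 in DESeq2 (Grin1 0.000196, Grin2a 0.0379). Leaving out 1 library gave 0 to 2, with 1 without NeuN+ DKO replicate 3 and 2 without NeuN- DKO replicate 3. The adjusted p alone called 7 subunits between the fractions of WT, against 4. The cause of these differences was not tested.

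For partner genes, the count in Mutyh-/- of NeuN+ rose from 0 to 1 with the adjusted p alone, no filter, DESeq2 or the likelihood ratio test, and was 0 to 1 with 1 library left out (Psph, without NeuN+ Mutyh-/- replicate 3). In Ogg1-/- of NeuN+ it was 2 with the adjusted p alone and 0 to 2 with 1 library left out (Calm2 among them, without NeuN+ Ogg1-/- replicate 1). With the adjusted p alone it was 2 in Ogg1-/- and 1 in DKO of NeuN-.

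Both fractions were collected in the sort, but no label ties a replicate number to a pool. Equal replicate numbers were therefore not taken as pairs in the main fit. Libraries of NeuN+ and NeuN- with 1 genotype and number had a mean correlation of deviations of 0.193 (lowest -0.000299). Not every library correlated best with its own number. The mean of -0.094 for different numbers is no separate baseline, since deviations are taken from the group mean. A pairing of the fractions can thus not be excluded. With the replicate block the ratio of Grin2a to Grin2b in NeuN+ had an exact permutation p of 0.0486 against 0.0714, and it was 0.0197 to 0.223 with 1 library left out (0.0197 without NeuN+ Mutyh-/- replicate 3, 0.033 without NeuN+ DKO replicate 3). In NeuN- it was under 0.05 with the block and in each of the 12 fits without 1 library.

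Fold changes near 0 changed sign without being called. With 1 library left out, the log2 fold change against WT ran from -0.0300 to 0.0563 for Grin1 in DKO, from -0.0162 to 0.0558 for Grin2b in Ogg1-/- and from -0.330 to 0.237 for Grin2c in Ogg1-/- of NeuN+. In NeuN- it ran from -0.106 to 0.0497 for Grin2b in Ogg1-/-, from -0.0953 to 0.0103 for Grin3a in Mutyh-/-, from -0.0751 to 0.0462 for Grin3a in DKO (0.0036 with upper quartile normalization), from -0.0347 to 0.0490 for Grin3b in Ogg1-/- and from -0.0579 to 0.0622 for Grin3b in DKO. Set against neuron markers, an alternative chosen after seeing the data, the exact permutation p of Grin3b in NeuN- was 0.0384. A lower sum of the markers raises this ratio by itself. Of 458 alternatives to 29 results that answer a comparison, 420 kept them and 38 changed them. A count of calls above 0 was taken as kept when it changed within a set factor, and many of the counts were 0. The changes include the calls of Grin1 in NeuN- and in the interaction of DKO given above. With 3 libraries a group, the scarce Grin2c of NeuN+ is the subunit measured least precisely.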
